A study of Homo sapiens with 4 samples.

Results

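Translation initiation and elongation factor genes were followed in HT1376 cells, an established human bladder carcinoma line, after drug treatment. They were taken as the protein coding genes whose symbol begins with EIF1 to EIF6, leaving out the EIF2AK kinases, or with EEF1 or EEF2. The rule found 67 of the 61860 genes listed, and 61 of them were among the 17465 genes with enough counts to test. The treated cells had received 1 nM enfortumab vedotin for 48 h (EV, n = 2), and the control cells had received the agent labelled WFI for the same time (WFI, n = 2). Enfortumab vedotin couples an antibody to nectin-4 with the microtubule poison monomethyl auristatin E. All samples came from this 1 line, and the labels do not say whether replicates were separate cultures.

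Protein synthesis starts when eIF2 brings the initiator tRNA to the small ribosomal subunit, which eIF3, eIF1 and eIF1A hold ready. The eIF4 proteins recognise the mRNA cap, unwind the leader and recruit that subunit, and eIF5 and eIF5B complete joining of the large subunit. The eEF1 proteins then deliver each aminoacyl-tRNA and eEF2 moves the ribosome along the mRNA. Cells tune these steps mainly through phosphorylation of eIF2 alpha, of the eIF4E binding proteins and of eEF2, none of which RNA counts measure.

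Of the 61 translation factor genes tested, 35 were higher in EV than in WFI (57.4%), 10 were lower (16.4%) and 16 did not pass. Over the 13554 protein coding genes tested those shares were 36.2% and 34.4%. Calls used edgeR's quasi-likelihood test at an adjusted p under 0.05 over all genes tested, by which 66% of all genes were called, 34.5% higher and 31.5% lower. The median log2 fold change of the members, EV over WFI, was 0.32, against 0.02 over all genes tested. Their range ran from -1.15 for EEF2K to 2.09 for EIF4A2, and 5 members rose and 2 fell by at least 1 on the log2 scale, against 17.5% and 13.3% of all genes. Both EV samples were above both WFI samples for 39 members and below them for 15, and the groups overlapped for 7. The corresponding shares over all genes tested were 42% and 40.7%. Together the 67 genes took 2.56% and 2.52% of the counts in EV, against 1.84% and 1.86% in WFI.

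**Figure D1:**
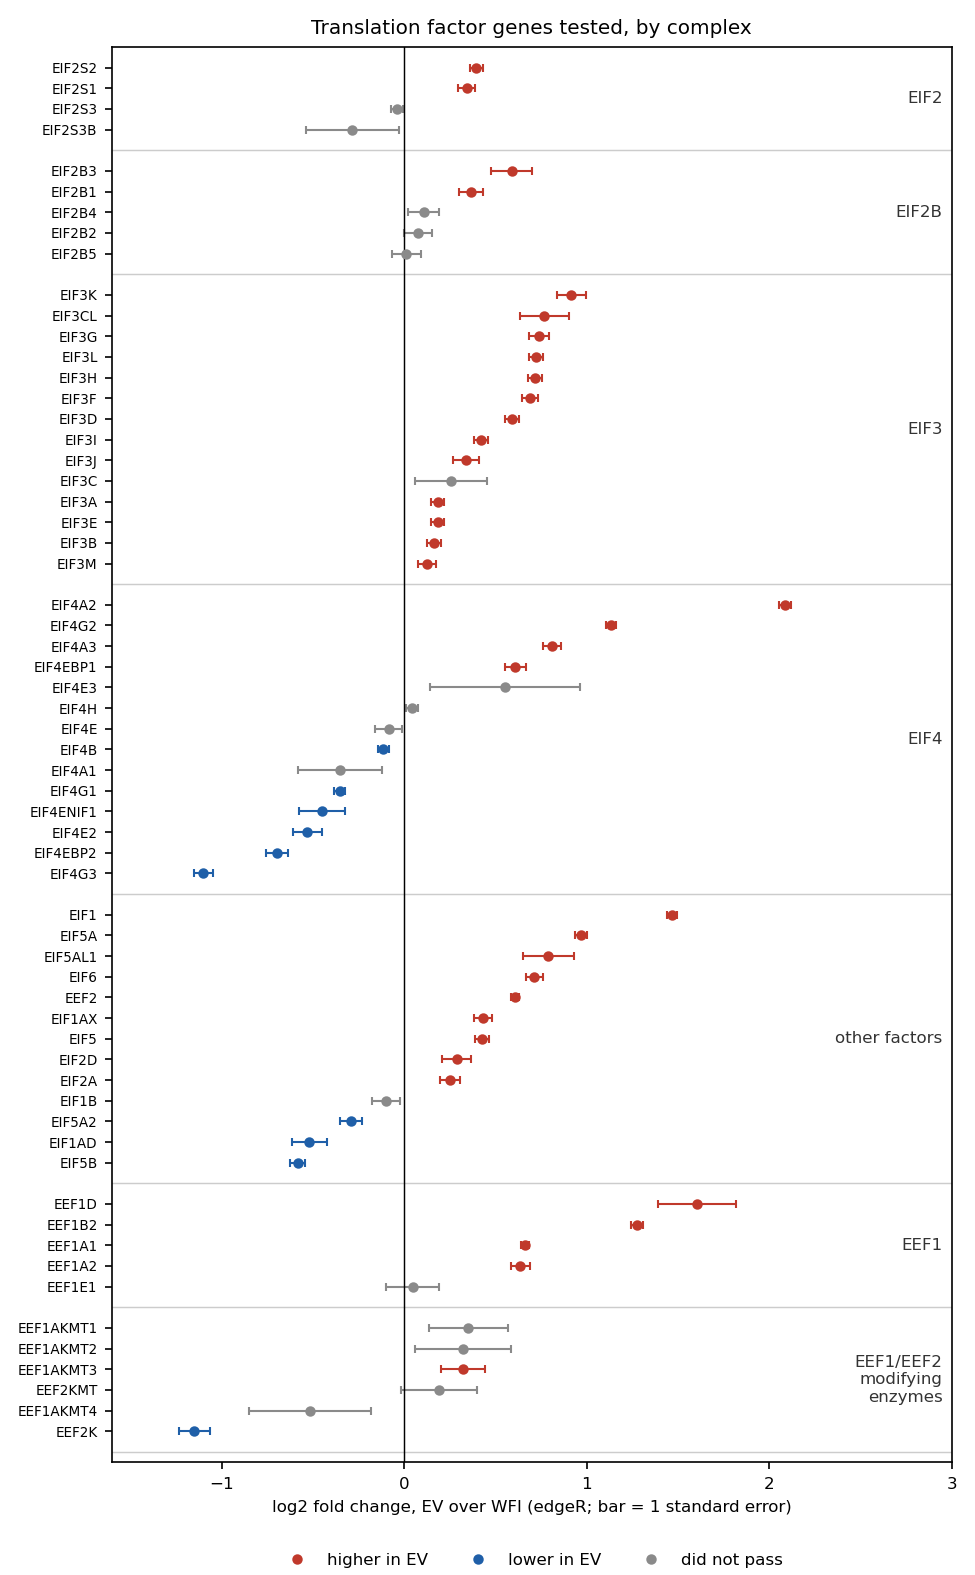
Log2 fold change, EV over WFI, of the 61 translation factor genes tested, grouped by complex. Points are edgeR estimates from 2 EV and 2 WFI samples and bars are 1 standard error. All 14 EIF3 genes lie right of 0, and the EIF4 genes spread from -1.10 to 2.09.

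The libraries held 19368791 and 20727175 counts in EV, against 19447577 and 19669037 in WFI. NECTIN4, which encodes the drug's target antigen, had 9 and 6 counts in EV, against 28 and 29 in WFI. Its log2 fold change was -1.76 (edgeR's quasi-likelihood test, adjusted p = 0.0144), and the adjusted p was 0.136 without WFI replicate 1 and 0.150 without WFI replicate 2. KRT8, a keratin gene of epithelial cells, was abundant, with 34354 and 36851 counts in EV, against 15269 and 15213 in WFI. KRT18 and KRT7 were abundant as well, but other keratin genes were not. KRT19 had 0 and 1 counts in EV and 1 and 6 in WFI. KRT5 had 97 and 134 counts in EV and 0 in both WFI samples. CDH1 had 9 and 7 counts in EV and 0 and 1 in WFI, KRT20 was at 0 in every sample, and 5 of the 12 urothelial and epithelial markers did not pass the count filter. The summed leukocyte and endothelial markers were higher in both EV samples, and the fibroblast sums overlapped between the groups. The 6 leukocyte markers summed to 42.9 and 43.1 CPM (counts relative to the TMM-scaled library total) in EV and 1.55 and 2.29 CPM in WFI, and 3 of them passed the filter, while PTPRC had 4 and 9 counts in EV and 1 and 3 in WFI. The 6 fibroblast markers summed to 12.04 and 9.35 CPM in EV and 8.33 and 10.0 CPM in WFI, and the 5 endothelial markers to 20.1 and 21.6 CPM in EV and 10.4 and 13.7 CPM in WFI. TIE1 made up most of the endothelial sums, with a mean of 13.1 CPM in EV and 10.0 CPM in WFI. What part these markers had in the results below was not tested. In bulk RNA fewer cells of a type cannot be told apart from less RNA per cell.

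Many translation factor mRNAs are known to begin with a pyrimidine tract right at the cap, through which their translation responds to mTORC1. The RefSeq promoter table on GRCh38.p14 held 48 of the 61 tested members and 11852 of all genes tested. A tract was counted where the annotated start was itself a C followed by at least 4 further pyrimidines (C or T). Pyrimidines could also lie directly before that base. It was present in 12 of the 48 members (25%), against 5.11% of all genes. The windows below give 10 bases before the start and 10 from it on, in the direction of transcription, with pyrimidine tracts in capitals. They are shown because 6 of these genes combine a tract at the start with higher counts in EV, EIF4B combines it with lower counts, and EIF4G1 and EIF5B fell without a tract.
EEF1A1 (chr6:73521023-73521042, minus strand): cgtgaacgttCTTTTTCgca
EEF2 (chr19:3985454-3985473, minus strand): cgtcagcgttCTCTTCCgcc
EIF4A2 (chr3:186783567-186783586, plus strand): gcgccgctgtCTTTTCagtc
EIF2A (chr3:150546777-150546796, plus strand): cgagcggtttCTCTTTCCgg
EIF3D (chr22:36529157-36529176, minus strand): cgcatgtttCCTCTTTTCCT
EIF3K (chr19:38619178-38619197, plus strand): tttccaccaCCTCTTCCTgt
EIF4B (chr12:53006446-53006465, plus strand): tcatccgggtCTTTTgcgtt
EIF4G1 (chr3:184314596-184314615, plus strand): gcggggagccggaaatggtt
EIF5B (chr2:99337379-99337398, plus strand): ctgagaactcacaccatatg

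Of the 12 members with the tract at their start, 9 rose, EIF4B fell, and EIF2S3 and its near-identical copy EIF2S3B did not pass. Over all genes tested, 262 of the 606 with such a tract were called higher (43.2%), against 34.3% of those without it. The median log2 fold change was 0.44 for these 12 genes and 0.14 for the other 36, among which 9 fell, 15 rose and 12 were not called. Over all genes with the table's sequence, the median was 0.11 for the 606 with such a tract and -0.0037 for the rest. When the tract could lie anywhere within 10 bases of the start, 22 of the 48 members held it (45.8%), against 28.8% of all genes. Under that wider definition the members' medians lay close together, at 0.25 with the tract and 0.24 without it, and 12 of 22 members with it and 12 of 26 without it rose. These sequences describe the annotated start, and the counts do not show where transcripts began.

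EIF2 is the trimer that carries the initiator tRNA, and EIF2B is the exchange factor that recharges it with GTP. Of the 4 EIF2 genes tested, which include EIF2S3B, a near-identical copy of EIF2S3, 2 rose (50%) and none fell. The median fold change was 0.15 on the log2 scale, or 0.34 with near-identical copies summed. Of the 5 EIF2B genes, 2 rose (40%) and none fell, and their median was 0.11. Among protein coding genes tested 36.2% rose and 34.4% fell. EIF2S2, the beta subunit, had 348 and 333 CPM in EV, against 260.3 and 257 CPM in WFI. EIF2S1, the alpha subunit whose phosphorylation slows initiation, had 169 and 162 CPM in EV, against 129 and 132 CPM in WFI. For both genes each EV sample was above each WFI sample. By edgeR's quasi-likelihood test the log2 fold change was 0.40 ± 0.04 (SE, adjusted p = 3.2e-06) for EIF2S2 and 0.34 ± 0.05 (SE, adjusted p = 6.0e-05) for EIF2S1.

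EIF2S3, the gamma subunit that binds the tRNA and GTP, had 398 and 393 CPM in EV and 409 and 405 CPM in WFI. The EV samples were slightly the lower ones, and its log2 fold change of -0.04 had an adjusted p of 0.289 by edgeR's quasi-likelihood test. It was called lower without a count filter (-0.12, adjusted p = 0.015) and with the correction for merged exon length and GC content (-0.22, adjusted p = 3.7e-05). It turned to 0.02 with upper quartile scaling and 0.01 with a filter of 50 counts, uncalled in both. EIF2S3B, 97.9% identical to it over 1601 aligned bases, had 110 and 88 counts in EV and 107 and 161 in WFI, so reads could have been shared between the pair.

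Among the EIF2B genes, EIF2B1, the alpha subunit, had 69.5 and 68.3 CPM in EV, against 54.5 and 52.4 CPM in WFI. EIF2B3, the gamma subunit, had 25.8 and 28.4 CPM in EV, against 18.9 and 17.1 CPM in WFI. Neither gene's groups overlapped, and the log2 fold changes were 0.37 ± 0.06 (SE, adjusted p = 4.6e-04) for EIF2B1 and 0.59 ± 0.11 (SE, adjusted p = 8.0e-04) for EIF2B3 by edgeR's quasi-likelihood test. EIF2B2, EIF2B4 and EIF2B5, the beta, delta and catalytic epsilon subunits, had log2 fold changes of 0.08, 0.11 and 0.01 and did not pass. EIF2B5 was called higher only in the fits with the length and GC correction.

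EIF3, the many-subunit scaffold that binds the small ribosomal subunit, moved in 1 direction: 13 of its 14 genes rose (92.9%) and none fell. The shares over protein coding genes tested were 36.2% higher and 34.4% lower. The median log2 fold change was 0.51, or 0.42 with near-identical copies summed, as the 14 genes include both EIF3C and its copy EIF3CL. The sizes differed between subunits, from 0.12 for EIF3M to 0.92 for EIF3K. EIF3H had 354 and 353 CPM in EV, against 210.2 and 220.3 CPM in WFI. EIF3L had 236 and 236 CPM in EV, against 144 and 142 CPM in WFI. EIF3K (chr19:38619082-38636955, hg38, plus strand) had 87.2 and 98.2 CPM in EV, against 51.7 and 46.6 CPM in WFI. In these 3 genes the EV samples lay clear of the WFI samples. The log2 fold changes were 0.72 ± 0.04 for EIF3H (SE, adjusted p = 2.9e-08), 0.72 ± 0.04 for EIF3L (SE, adjusted p = 3.7e-08) and 0.92 ± 0.08 for EIF3K (SE, adjusted p = 1.5e-06), all by edgeR's quasi-likelihood test. EIF3L shares 44.8% of the exon bases of its principal transcript with another annotated gene on the same strand, which had 97 and 56 counts in EV and 55 and 49 in WFI.

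The EIF3 genes that rose by more than 0.5 on the log2 scale were EIF3D (0.59), which contacts the cap of some mRNAs, EIF3F (0.69), EIF3G (0.74), EIF3H, EIF3L, EIF3K and EIF3CL (0.77). Smaller rises were seen for EIF3I (0.42) and EIF3J (0.34), a loosely held subunit, and for EIF3A, EIF3B and EIF3E (0.18, 0.16 and 0.18), of which EIF3A and EIF3B form the core of the complex. The call for EIF3M was near the threshold (edgeR's quasi-likelihood test, adjusted p = 0.0482). It was lost without EV replicate 1 (0.298), without WFI replicate 1 (0.250), without WFI replicate 2 (0.399), without a count filter (0.517) and with DESeq2 (0.127), all as adjusted p. EIF3B was lost without WFI replicate 1 (adjusted p = 0.0806), without WFI replicate 2 (adjusted p = 0.113) and without a count filter (adjusted p = 0.152) in edgeR.

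EIF3C was the EIF3 gene that did not pass, with 773 and 758 counts in EV and 902 and 517 in WFI. The WFI samples stood on either side of the EV samples. EIF3C and EIF3CL align over 3082 bases with 0 mismatches and 3 gaps, so single-gene values of either are uncertain. Their summed counts were 1090 and 1150 in EV and 1121 and 758 in WFI, with a log2 fold change of 0.40 (edgeR's quasi-likelihood test, adjusted p = 0.0290). Without WFI replicate 1, EIF3C alone was called higher (0.69, adjusted p = 2.4e-05), and without WFI replicate 2 it turned to -0.13 (adjusted p = 0.445).

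**Figure D2:**
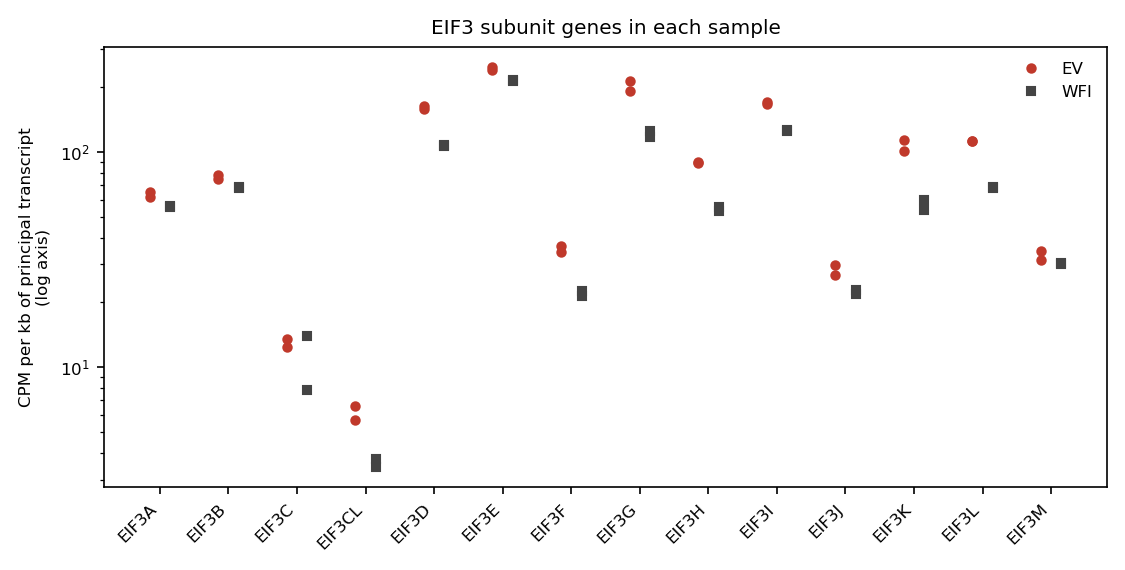
Level of each EIF3 gene in each sample, as CPM per kilobase of principal transcript on a log axis, with EV as circles left of WFI as squares. EV lies above WFI for 13 genes, and for EIF3C the WFI samples enclose the EV samples. On this scale EIF3E (244 in EV and 215 in WFI on average) is the highest of the subunits.

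Per kilobase of principal transcript the EIF3 genes did not share 1 level. Mean levels in EV ran from 6.11 CPM per kb for EIF3CL and 13.0 for EIF3C to 203 for EIF3G and 244 for EIF3E. In WFI the same 4 genes had 3.59, 10.9, 121 and 215 CPM per kb. The levels of EIF3CL and EIF3C are uncertain as single genes, and the next lowest in EV was EIF3J at 28.3 CPM per kb. Summed over the complex, EIF3 took 3108 and 3086 CPM in EV, against 2293 and 2283 CPM in WFI.

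The EIF4 genes went in both directions: 6 of 14 fell (42.9%), 4 rose (28.6%) and 4 missed the threshold. Their median was -0.10 on the log2 scale. Among protein coding genes tested 34.4% fell and 36.2% rose, so this mix was near the background. With upper quartile scaling 5 EIF4 genes rose and 5 fell. The summed level of the 16 EIF4 genes was higher in EV, at 5762 and 5738 CPM, against 3555 and 3525 CPM in WFI. EIF4A2 and EIF4G2 made up that difference, since the other 14 genes summed to 2002 and 1998 CPM in EV, against 2217 and 2187 CPM in WFI. Those other 14 genes include EIF4A1, which could not be read from its own counts, as described below, so the sums are limited in that respect. EIF4A2 (chr3:186783205-186789900, hg38, plus strand), an RNA helicase that unwinds mRNA leaders, had 1723 and 1649.8 CPM in EV, against 399.9 and 394 CPM in WFI. EIF4G2 (chr11:10797050-10809110, minus strand), also called DAP5, a scaffold relative that lacks the eIF4E binding region, had 2037 and 2090.3 CPM in EV, against 938 and 944 CPM in WFI. EIF4G3 (chr1:20806292-21176888, minus strand), a scaffold that does bind eIF4E, had 64.3 and 67.1 CPM in EV, against 140.4 and 142 CPM in WFI. None of these 3 genes had overlapping groups, and replicates differed far less than the groups did.

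By edgeR's quasi-likelihood test the log2 fold change was 2.09 ± 0.03 for EIF4A2 (SE, adjusted p = 1.1e-12), a mean CPM 4.25 times as high in EV. It was 1.13 ± 0.03 for EIF4G2 (SE, adjusted p = 2.8e-11) and -1.10 ± 0.05 for EIF4G3 (SE, adjusted p = 1.1e-08). With the length and GC correction EIF4G3 was -0.71 and still called. EIF4G1, the main cap-binding scaffold, fell by 0.35 on the log2 scale (edgeR adjusted p = 1.8e-06), and with that correction by 0.09 (adjusted p = 0.0178). As a ratio of counts, not corrected for length, EIF4G1 had 0.296 and 0.293 times the counts of EIF4G2 in EV, against 0.843 and 0.807 times in WFI. EIF4A2 had 2.86 and 2.69 times the counts of EIF4G1 in EV, against 0.506 and 0.517 times in WFI.

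**Figure D3:**
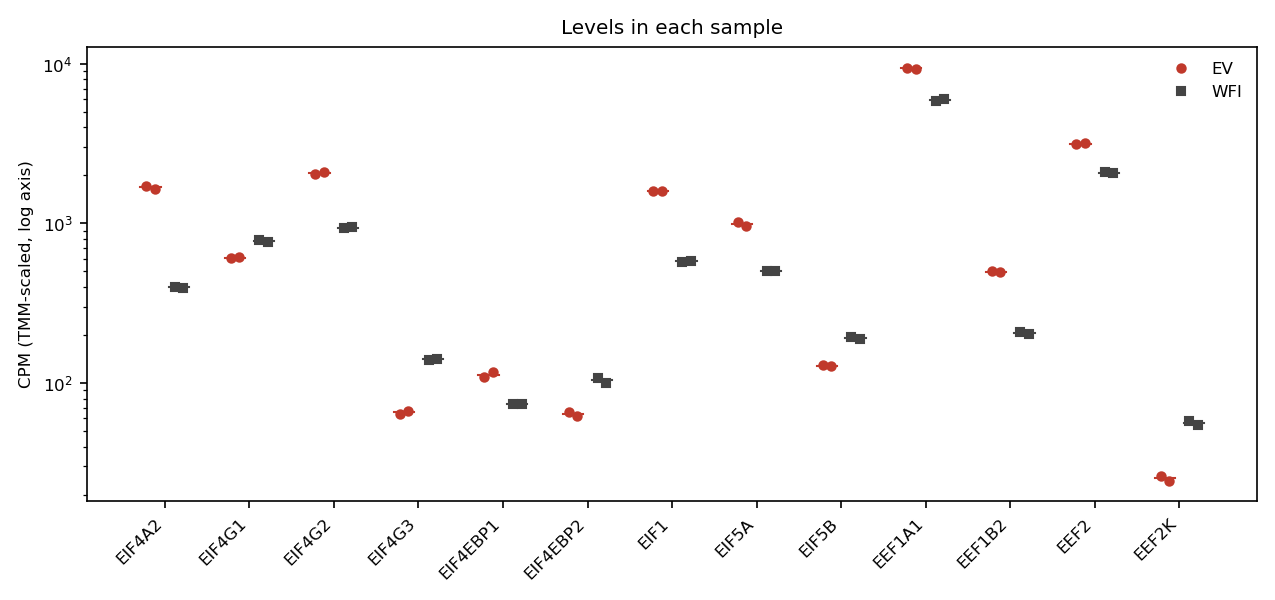
CPM of 13 translation factor genes in each sample on a log axis, with EV as circles left of WFI as squares and short lines at the group means. EIF4A2 stands near 1687 CPM in EV and 397 CPM in WFI, while EIF4G3, EIF4EBP2, EIF5B and EEF2K lie lower in EV.

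In the 250 bases before the start, searched on both strands, 2 of the 48 member promoters held the letters TATAAA (4.17%). They were those of EIF4A2 and EEF2, and 5.94% of all genes held these letters. The match is in capitals in each window below, 30 to 25 bases before the start in both genes, and it is shown because EIF4A2 had the largest rise and EEF2 encodes the translocase of elongation.
EIF4A2 (chr3:186783536-186783563, GRCh38.p14, plus strand): ggccacgagccTATAAAaaacgggtggt
EEF2 (chr19:3985477-3985504, GRCh38.p14, minus strand): cggcgtccgccTATAAAaagctgagtgt
Genes with this motif had a median log2 fold change of 0.24 over all genes tested, against -0.01 for those without it. The E-box CACGTG, which MYC and related factors can bind, was found in 12 of the 48 member promoters (25%), against 8.53% of all genes. The median log2 fold change was -0.09 for these 12 members and 0.31 for the other 36, while over all genes it was 0.04 with the E-box and -0.0029 without it. A match is a description of the letters and says nothing on binding here.

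EIF4A1, the helicase closest to EIF4A2, could not be read from its own counts. It had 78 and 124 counts in EV and 142 and 142 in WFI, and 100% of the exon bases of its principal transcript lie in other genes on the same strand in GENCODE release 29. Of those overlapping genes, SENP3-EIF4A1 had 59 and 56 counts in EV and 4 and 6 in WFI, and ENSG00000264772 had 67 and 101 in EV and 1 and 3 in WFI. The 13 EIF4A1 pseudogenes listed held 382 and 363 counts in EV and 258 and 269 in WFI, more than the gene itself. Its log2 fold change was -0.35 (edgeR's quasi-likelihood test, adjusted p = 0.207), was called lower without EV replicate 2 (-0.69, adjusted p = 0.0168) and turned to 0.37 with the pseudogene counts added (adjusted p = 0.00824). EIF4A1 and EIF4A2 align with 70.5% identity. EIF4A3, the helicase of the exon junction complex, rose by 0.81 on the log2 scale (edgeR adjusted p = 7.1e-08).

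At the cap-binding step EIF4E2 and EIF4ENIF1 fell, and EIF4E and EIF4E3 did not pass. EIF4E, which binds the cap, had 48.0 and 52.7 CPM in EV and 53.7 and 53.0 CPM in WFI, all EV values being lower by a small margin (log2 fold change -0.08, edgeR adjusted p = 0.347). The length and GC correction turned EIF4E to 0.68 and called it higher (adjusted p = 3.0e-06). EIF4E2, a cap-binding relative linked to repression, fell by 0.53 on the log2 scale (edgeR adjusted p = 1.5e-04), and EIF4ENIF1, the transporter that carries eIF4E into the nucleus, fell by 0.45 (adjusted p = 0.00924), or by 0.29 without EV replicate 1 (adjusted p = 0.0354). EIF4E3 had 31 and 72 counts in EV and 37 and 40 in WFI and did not pass (edgeR adjusted p = 0.259). It was called higher without EV replicate 1 (0.99, adjusted p = 0.0219) and with the length and GC correction (1.18, adjusted p = 0.0220), and without EV replicate 2 it turned to -0.13 (adjusted p = 0.755).

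The inhibitors that sequester eIF4E changed in opposite directions. EIF4EBP1 had 109 and 117 CPM in EV, against 73.9 and 74.3 CPM in WFI, and rose by 0.61 on the log2 scale (edgeR adjusted p = 3.3e-06). EIF4EBP2 had 66.2 and 62.4 CPM in EV, against 108 and 101 CPM in WFI, and fell by 0.70 (adjusted p = 2.1e-06). Counts of EIF4EBP1 were thus 1.64 and 1.88 times those of EIF4EBP2 in EV, against 0.685 and 0.739 times in WFI. With the length and GC correction EIF4EBP1 was no longer called (0.01, adjusted p = 0.919). The helicase cofactors moved little: EIF4B fell by 0.11 (edgeR adjusted p = 0.00799) and EIF4H stood at 0.04 (adjusted p = 0.263). The call for EIF4B was lost with upper quartile scaling (adjusted p = 0.138), a filter of 50 counts in 2 samples (0.0780) and the length and GC correction (0.180). EIF4H was called higher with upper quartile scaling (adjusted p = 0.0224) and the filter of 50 counts (0.0276), and lower with the length and GC correction (-0.18, adjusted p = 2.3e-04).

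Outside these complexes, 9 of 13 tested factors rose (69.2%) and 3 fell (23.1%), against 36.2% and 34.4% of protein coding genes tested. Their median was 0.43 on the log2 scale. With near-identical copies summed, 8 rose and the median was 0.36. EIF1 (chr17:41688885-41692668, hg38, plus strand), which guards start codon choice, had 1602 and 1593 CPM in EV, against 573 and 582 CPM in WFI. EIF5A (chr17:7306999-7312463, plus strand), which helps ribosomes through difficult peptide bonds, had 1015 and 960.1 CPM in EV, against 504 and 505 CPM in WFI. EIF5B (chr2:99337353-99401326, plus strand), the GTPase that joins the subunits, had 129.5 and 127 CPM in EV, against 195 and 190 CPM in WFI. Groups did not overlap for any of the 3. The log2 fold changes by edgeR's quasi-likelihood test were 1.47 ± 0.03 for EIF1 (SE, adjusted p = 4.8e-12), 0.97 ± 0.03 for EIF5A (SE, adjusted p = 7.4e-10) and -0.58 ± 0.04 for EIF5B (SE, adjusted p = 4.4e-07). With the length and GC correction EIF5B was -0.22 and still called.

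Among their relatives EIF5AL1 rose, EIF5A2 fell and EIF1B did not pass. EIF1B, related to EIF1, had 40.6 and 43.3 CPM in EV and 44.2 and 45.8 CPM in WFI and did not pass (edgeR adjusted p = 0.292), so EIF1 had 39.4 and 36.8 times its counts in EV, against 13.0 and 12.7 times in WFI. EIF5A2 fell by 0.29 on the log2 scale (edgeR adjusted p = 0.00157), and EIF5A had 16.2 and 14.4 times its counts in EV, against 6.34 and 6.39 times in WFI. The EIF5A2 call was lost with the length and GC correction (-0.02, adjusted p = 0.777), under which EIF1B was called lower (-0.45, adjusted p = 2.9e-04). EIF5AL1, 98.0% identical to EIF5A over 1152 aligned bases, rose by 0.79, and the summed counts of the pair gave 0.97 (edgeR adjusted p = 7.1e-10).

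EIF1AX, which works beside EIF1 in scanning, rose by 0.43 on the log2 scale, EIF5, the GTPase activator of eIF2, by 0.43, and EIF6, which keeps the large subunit apart from the small one, by 0.71. EIF1AD, a related nuclear protein, fell by 0.52 (edgeR adjusted p = 6.7e-04). EIF2A and EIF2D, which are reported to deliver tRNA without eIF2, rose by 0.25 (edgeR adjusted p = 0.00243) and 0.29 (adjusted p = 0.00725). EIF2A was lost without WFI replicate 1 (adjusted p = 0.122). EIF2D was lost without WFI replicate 1 (adjusted p = 0.0767) and without WFI replicate 2 (adjusted p = 0.106). EIF6 shares 22.0% of its principal exon bases with another gene on the same strand, which had 0 counts in both EV samples and 18 and 14 in WFI.

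Per kilobase of principal transcript EEF1A1 had the highest level of all members in both groups. Of the 5 EEF1 genes tested, 4 rose (80%) and none fell, against 36.2% and 34.4% of protein coding genes tested. Their median was 0.66 on the log2 scale, and the complex summed to 10166 and 9985 CPM in EV, against 6172 and 6356 CPM in WFI. EEF1A1, which delivers aminoacyl-tRNA, had 9466 and 9269 CPM in EV, against 5829 and 6019 CPM in WFI. EEF1B2 (chr2:206159585-206162928, hg38, plus strand), which recharges it with GTP, had 500.4 and 499 CPM in EV, against 209 and 204 CPM in WFI. Both were higher in each EV sample. The log2 fold changes were 0.66 ± 0.02 for EEF1A1 (SE, adjusted p = 5.0e-10) and 1.28 ± 0.03 for EEF1B2 (SE, adjusted p = 1.1e-10) by edgeR's quasi-likelihood test.

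EEF1A2, the paralogue of EEF1A1 best known from muscle and neurons, rose by 0.64 on the log2 scale (edgeR adjusted p = 1.1e-06). EEF1A1 had 53.6 and 47.8 times its counts in EV and 49.2 and 50.2 times in WFI, so the groups overlapped in this ratio. Levels per kilobase of principal transcript averaged 2109 CPM per kb for EEF1A1 and 92.0 for EEF1A2 in EV, against 1334 and 59.2 in WFI. Pseudogene rows named after EEF1A1 held between 2.55% and 2.89% as many counts as the gene in the 4 samples. EEF2, the translocase, had 3132 and 3204 CPM in EV, against 2094 and 2062 CPM in WFI, and rose by 0.61 (edgeR adjusted p = 1.9e-09).

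EEF1D, a further exchange factor subunit, had 220 and 209 counts in EV and 91 and 65 in WFI, the largest rise of the EEF1 genes (log2 fold change 1.61 ± 0.21 SE, edgeR adjusted p = 5.6e-05). Its level was 4.81 CPM per kb in EV and 1.58 in WFI, against 455 and 188 for EEF1B2. Of its principal exon bases, 31.6% face a gene on the opposite strand. Pseudogene rows named after EEF1D held between 23.9% and 41.5% as many counts as the gene in the 4 samples. EEF1G, the gamma subunit of the same complex, was listed at 0 in all 4 samples. Of the exon bases of its principal transcript, 99.9% lie in another gene on the same strand. That gene had 1 and 0 counts in EV and 0 and 0 in WFI. EEF1E1, a component of the multi-synthetase complex, stood at 0.05 (edgeR adjusted p = 0.801). How the authors' counting treated overlapping genes is not given in the sources used here.

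Enzymes that modify the elongation factors showed 1 clear fall. EEF2K (chr16:22206282-22288732, hg38, plus strand), the kinase that phosphorylates and slows eEF2, had 26.3 and 24.4 CPM in EV, against 58.2 and 54.3 CPM in WFI. EEF1AKMT3, a lysine methyltransferase of eEF1A, had 17.4 and 16.9 CPM in EV, against 14.1 and 13.4 CPM in WFI. The EEF2K groups were far apart and the EEF1AKMT3 groups close but separate. The log2 fold changes by edgeR's quasi-likelihood test were -1.15 ± 0.09 for EEF2K (SE, adjusted p = 5.5e-07) and 0.32 ± 0.12 for EEF1AKMT3 (SE, adjusted p = 0.0363). EEF2 had 119 and 131 times the counts of EEF2K in EV, against 35.9 and 38.0 times in WFI. The EEF1AKMT3 call was lost without EV replicate 1 (adjusted p = 0.0630), without WFI replicate 1 (0.192), without WFI replicate 2 (0.317), without a count filter (0.195), with DESeq2 (0.117) and with the length and GC correction (0.578).

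The other methyltransferases, EEF1AKMT1 (0.35), EEF1AKMT2 (0.32), EEF1AKMT4 (-0.51) and EEF2KMT (0.19), did not pass and had between 36 and 188 counts in each sample. EEF1AKMT4 was called lower with the length and GC correction (-0.92, adjusted p = 0.0303). The members that did not reach the count filter were EEF1G, EIF1AY, EIF4E1B, EIF4EBP3 and the readthrough genes EEF1E1-BLOC1S5 and EEF1AKMT4-ECE2. The highest count of any of these in any sample was 8, for EIF4E1B in EV.

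**Figure D4:**
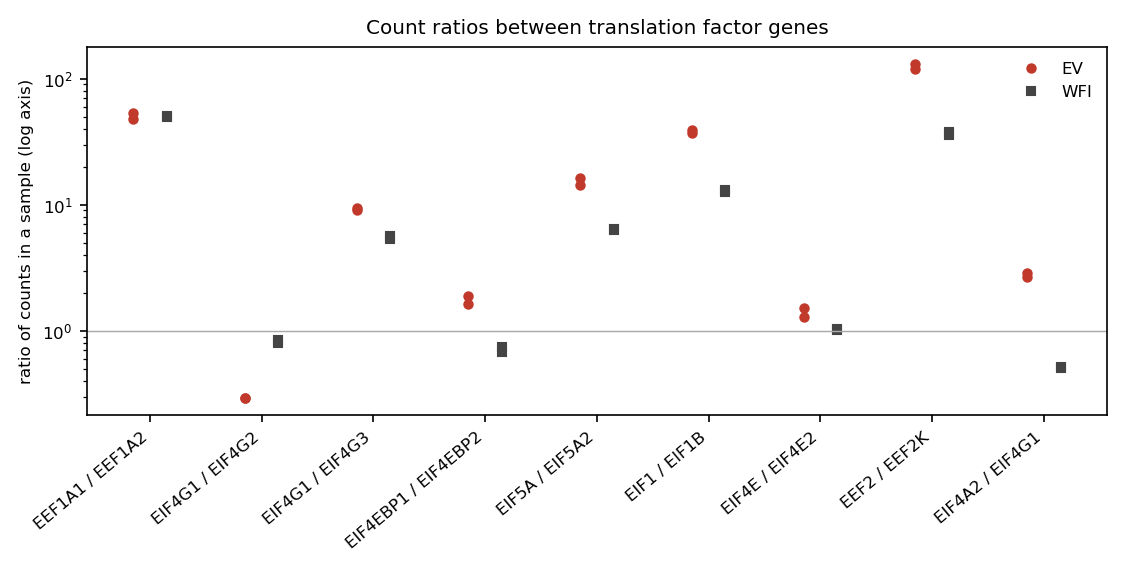
Ratios of counts between pairs of translation factor genes in each sample on a log axis, with EV as circles left of WFI as squares and a line at 1. EIF4G1 over EIF4G2 is 0.296 and 0.293 in EV and 0.843 and 0.807 in WFI, while EEF1A1 over EEF1A2 overlaps between the groups.

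Transcript length moved with the fold changes and is given beside them. Across the 61 members, Spearman's correlation of log2 fold change with merged exon length was -0.21, and with principal transcript length it was -0.31. Across the 13554 protein coding genes tested the same correlations were -0.33 and -0.37, all from the same 4 libraries. The median merged exon length was 4131 bases for the members that rose and 7217 bases for those that fell. With offsets that remove trends on length and GC content, 35 members were higher and 12 lower, of which 32 and 8 were also called in that direction without them. The correction moved the values of further called genes by over 1.5 times without ending their calls. Smaller values were found for EIF2S2 (0.10), EIF2B1 (0.17), EIF2B3 (0.37), EIF3G (0.49), EIF3J (0.22), EIF4E2 (-0.34) and EIF6 (0.28). Larger ones were found for EIF3A (0.37), EIF3B (0.49), EIF3E (0.37), EIF3F (1.13), EIF3M (0.46), EIF2D (0.56) and EIF5 (0.77). EIF3I was no longer called (0.03, edgeR adjusted p = 0.542). The EIF2 median turned to -0.06 and the median of the modifying enzymes to -0.08. Whether length itself had a part in these fold changes was not tested.

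Regulators of the same steps and further related lists were counted as well. Over all genes tested 34.5% were higher in EV and 31.5% lower. The 9 genes of the eIF2 alpha kinases and the phosphatase that opposes them comprised 4 that rose and 5 that fell, and their median was -0.15 on the log2 scale. EIF2AK3 (PERK), the kinase of the endoplasmic reticulum, had 82.4 and 91.2 CPM in EV, against 25.1 and 23.3 CPM in WFI (log2 fold change 1.84, edgeR adjusted p = 6.5e-09). EIF2AK2 (PKR), the kinase that senses double-stranded RNA, had 104 and 96.1 CPM in EV, against 272 and 279 CPM in WFI (-1.46, edgeR adjusted p = 5.0e-10). Thus these kinase genes moved in opposite directions with no overlap of their groups. EIF2AK4 (GCN2), which senses uncharged tRNA, fell by 0.56 (edgeR adjusted p = 3.0e-06), and EIF2AK1 (HRI), the heme-regulated kinase, fell by 0.15 (adjusted p = 0.0161). EIF2AK4 was not called with the length and GC correction (-0.03, adjusted p = 0.641), under which EIF2AK2 was -0.88 and still called. EIF2AK1 was not called with upper quartile scaling (adjusted p = 0.111), with the 50-count filter (0.0735) or without WFI replicate 1 (0.0902). PPP1R15B, the constitutive phosphatase subunit, fell by 1.66 (edgeR adjusted p = 1.5e-09), while PPP1R15A, its stress-induced counterpart, rose by 0.97 (adjusted p = 2.3e-08). PPP1R15A was named after its value was seen.

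Among 13 genes of mTORC1 and MNK signalling, 5 fell, 6 rose and 2 were not called, and the median was 0.01 on the log2 scale. AKT1S1, an mTORC1 inhibitor, rose by 1.09 (edgeR adjusted p = 1.4e-08) and RPTOR, the scaffold of mTORC1, fell by 1.68 (adjusted p = 6.7e-07). Of 5 genes for poly(A) binding proteins and their partners, 4 rose and 1 fell, with a median of 0.58. PABPC4 had 936 and 935 CPM in EV, against 165 and 168 CPM in WFI, and rose by 2.49 (edgeR adjusted p = 4.6e-13). PAIP2B, a repressor of poly(A) binding protein, fell by 0.65 (adjusted p = 0.0355), which was lost without EV replicate 1 (0.0603), without WFI replicate 1 (0.114), without WFI replicate 2 (0.128), with DESeq2 (0.0637), with upper quartile scaling (0.0512) and with the length and GC correction (0.0752).

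Of 7 termination and recycling genes tested, 3 rose and 3 fell, with ETF1, the release factor that reads stop codons, at 0.43 (edgeR adjusted p = 2.3e-06) and PELO, a ribosome rescue factor, at -0.41 (adjusted p = 3.5e-04). Of 9 hypusine and diphthamide enzymes, which modify eIF5A and eEF2, 4 rose and 1 fell, or 2 without EV replicate 1. DOHH rose by 0.98 (edgeR adjusted p = 7.0e-06). DHPS, which starts hypusine synthesis on eIF5A, had 12 and 15 counts in EV and 63 and 79 in WFI and fell by 2.24 (adjusted p = 3.8e-04). Of 10 mitochondrial translation factors, 5 rose and 1 fell, with 3 higher without either WFI replicate and 3 lower without EV replicate 1. Among these were TUFM at 0.75 (edgeR adjusted p = 6.2e-08) and GFM1 at -0.56 (adjusted p = 1.1e-04), both elongation factors of the mitochondrial ribosome. With the length and GC correction GFM1 was not called (-0.16, adjusted p = 0.0925), and DOHH (0.47) and TUFM (0.40) were smaller but still called.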

How the data were processed

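RNA-seq of total RNA used a directional library kit, per the labels' protocols. The values deposited by the authors are raw counts, whole numbers for each gene in 4 samples. The build was hg38, per the submitters' processing notes. Not given in the sources used here are the aligner, the counting tool, how it used strand, and the release of its annotation. Of the gene identifiers, 61757 matched a symbol and 103 did not.

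Counts were tested with edgeR 4.0.16 (R 4.3.3) after filterByExpr and TMM scaling, using the quasi-likelihood test on the group alone, with Benjamini-Hochberg adjustment over all 17465 genes tested and calls at 0.05. A standard error is the log2 fold change over the square root of the F statistic. CPM were computed on the TMM-scaled library, so a change is relative to the rest of the library. Coordinates, overlaps, merged exon lengths and principal transcripts came from GENCODE release 29. The length and GC correction used per-sample offsets from spline trends on merged exon length and on the GC content of the principal transcript. Other settings tried were DESeq2 1.42.0, edgeR with RLE or upper quartile scaling, other count filters, a replicate block, leaving out each sample, pseudogene counts added to their parent, and a size minimum of 1 on the log2 scale.

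Chi-square per degree of freedom between replicates was 4.58 in EV and 2.20 in WFI, above counting noise. The labels do not call the replicates separate cultures. The p-values therefore reflect only how these samples vary, and that variation may be technical. Per-sample values are given for the 2 smallest adjusted p and the largest rise and fall per complex, and for further members where a limit or a ratio turns on them. In related lists the largest rise and fall are named. Members and lists were chosen with earlier results of these data known.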

Additional observations from a re-analysis of the deposited data

How the results depend on the processing

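Over the alternatives other than a size minimum, members called higher numbered 31 to 36 and members called lower 9 to 13, and no call was opposite to that of the reported fit. Between alternatives, EIF4H and EIF4A1 were called in opposite directions. Of the 35 higher, 10 lower and 16 uncalled members, 28, 8 and 6 had the same call in every such setting. A minimum absolute log2 fold change of 1 left 5 members higher and 2 lower. It left 0 higher in EIF2, 0 in EIF2B and 0 in EIF3, 2 higher and 1 lower in EIF4, 2 higher in EEF1, 1 higher and 0 lower among the other factors and 0 higher among the modifying enzymes. For related lists it left 1 higher and 2 lower eIF2 alpha regulators, 3 and 2 in mTORC1 and MNK signalling, 1 and 0 among poly(A) binding genes, 0 and 0 in termination and in mitochondrial factors, 0 higher hypusine and diphthamide enzymes, and 3063 higher and 2322 lower of all genes.

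The modifying enzymes had 0 higher with DESeq2, with no count filter and with the length and GC correction, and 2 lower with the correction. EIF2 had 1 lower with no filter and 1 with the correction. The correction left 2 lower hypusine and diphthamide enzymes, 3 lower in mTORC1 and MNK signalling, 0 lower mitochondrial factors and 0 lower poly(A) binding genes, the last also 0 with DESeq2 and upper quartile scaling. Leaving out 1 sample at a time gave 31 to 35 members higher and 10 to 11 lower, 0 to 1 modifying enzymes higher, 1 to 2 hypusine and diphthamide enzymes lower, 3 to 5 mitochondrial factors higher and 1 to 3 lower, 0 to 1 poly(A) binding genes lower, 2 to 3 termination genes higher and 2 to 4 lower, and for all genes 4926 to 5983 higher and 4611 to 5789 lower. Where 1 sample remained in a group, it was assumed to vary like the other group.

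The sign turned for EIF4A1 with pseudogene counts (0.37). With the length and GC correction, values of called genes, or values called there, turned sign for EIF4E (0.68), EIF4H (-0.18), PPP1CA (-0.00078), TSC1 (0.64), ABCE1 (0.013), HBS1L (0.45) and MCTS1 (-0.012). Genes called in neither fit that also turned were EEF1AKMT1 (-0.10), EEF1E1 (-0.14), EEF2KMT (-0.047), MTIF3 (-0.28) and the marker COL1A1 (0.042). The cause was not tested.

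Replicate numbers are shared by the groups, but no label says that they mark a pairing. Deviations of same-numbered samples from their group means correlated at 0.016 across genes. With the replicate block 36 members were higher and 10 lower. EIF3C became called (0.30, adjusted p = 0.0058). With the block and the length and GC correction together, 36 were higher and 13 lower, with 2 lower in EIF2 and 0 higher and 2 lower among modifying enzymes. Values that turned sign there included EIF4E (0.68), EIF4H (-0.18), PPP1CA (-0.00077), TSC1 (0.64), ABCE1 (0.011), HBS1L (0.45) and MCTS1 (-0.0091). Related lists had 2 lower hypusine and diphthamide enzymes, 3 lower in mTORC1 and MNK signalling, 0 lower mitochondrial factors and 0 lower poly(A) binding genes.

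Summing the near-identical copies, an alternative chosen after seeing the data, gave 34 members higher and 10 lower. The median log2 fold change was then 0.34 in EIF2, 0.42 in EIF3 and 0.36 among the other factors.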
